A study of Rattus norvegicus with 8 samples.

Results

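The genes described here are 10 liver-made genes of blood coagulation and its control, in livers of rats fed a cholesterol diet with or without Lactobacillus brevis 119-2. They are the clotting factor genes F2 (prothrombin), F5, F7, F9, F10, F11 and F12, the anticoagulant genes Serpinc1 (antithrombin) and Proc (protein C), and Plg (plasminogen). A gene was taken as measured where at least 1 probe set of the array was annotated to it and to no other gene. By that rule 8 of the 10 genes were measured, each by 1 probe set, out of 14217 genes measured in all, and F7 and F11 are not analysed here. None of the 8 probe sets gave a diet difference that passed the test, and 4 of them (F2, F10, Serpinc1 and Proc) held the same value on every array.

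The samples were livers of 8 male Sprague-Dawley rats aged 7 weeks, 1 Affymetrix 3′ expression array per rat. Rats of the L. brevis group (4 arrays) had eaten CRF-1, a standard chow, for 2 weeks, with cholesterol (10 g per kg), cholic acid (5 g per kg) and freeze-dried live L. brevis 119-2 (10 g per kg), a lactic acid bacterium from turnip. The control group (4 arrays) had eaten the same cholesterol and cholic acid diet without the bacterium for 2 weeks, per the design text, although the source label of these arrays names CRF-1 alone. The design text, which is followed here, gives both groups the cholesterol and cholic acid load and 11 rats to each diet. If the source label were right, the contrast would also hold that load. Per the titles, arrays of 1 diet are biological replicates, so the p-values measure the spread between 4 livers of each diet.

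Coagulation is a cascade of plasma proteases, most of them made by hepatocytes as inactive precursors, in which tissue factor with factor VII, or contact activation of factor XII, leads through factors XI, IX and X to thrombin, which cuts fibrinogen into fibrin. Factor V is the cofactor with which factor X activates prothrombin. Antithrombin blocks thrombin and factor Xa, activated protein C destroys the activated cofactors, and plasmin, made from plasminogen, dissolves fibrin. Prothrombin, factors VII, IX and X and protein C need a vitamin K-dependent carboxylation before they can bind membranes. In mice and in human patients, transcription of many of these genes in hepatocytes depends on the nuclear receptor HNF4.

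The stretches before the start sites are shown for the measured genes in which the letters of either longer HNF4 pattern searched were found. These patterns cover only part of a complete HNF4 site, and such sites are well known control sequences of liver coagulation genes. Each is the 100 bases before the RefSeq start on build GRCr8, 5′ to 3′ on the strand of the gene, with the matched letters in capitals. F9 lies on the plus strand (chrX:143388542-143388641), as does Serpinc1 (chr13:75790458-75790557).
F9: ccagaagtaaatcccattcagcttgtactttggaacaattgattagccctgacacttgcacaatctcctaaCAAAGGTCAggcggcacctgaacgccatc
Serpinc1: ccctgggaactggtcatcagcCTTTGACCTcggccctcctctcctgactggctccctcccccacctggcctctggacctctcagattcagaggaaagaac

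The capitals in F9 are the HNF4 letters CAAAGGTCA, from 29 to 21 bases before the start (written -29 to -21 in what follows). Within 250 bases before and 50 bases after the start, searched on both strands, these letters occurred in 142 of 33469 rat promoters (0.424%), and in 2 of the 10 genes, F9 and the unmeasured F7. The capitals in Serpinc1 are the second HNF4 arrangement searched, AGGTCAAAG, on the other strand from -79 to -71, which 0.475% of promoters held. In all 9 patterns were searched, and the 2 shown were chosen after the matches were seen. The other HNF4 pattern, CAAAG, lies inside both printed HNF4 patterns and was found in 53.8% of promoters. The C/EBP pattern TTGCGCAA matched none of the 10 genes (0.17% of promoters), and neither did the inverted repeat of FXR (0.0269%). The looser C/EBP pattern TTGCNNAA, of which TTGCGCAA is a special case, matched F9 and Serpinc1 (10.6%). F7 and F10 are direct neighbours in that annotation, with 0 other genes in the stretch between them.

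Signals below are on the deposited log2 scale, and each difference is the L. brevis mean less the control mean. The table has a property that decides how much can be said of each gene: 24719 of 31042 probe sets had 8 values spanning no more than 0.01 log2, and only the other 6323 (20.4%) are called varying here. Where a probe set was flat the rats could not be compared, and nothing is said of whether that gene's RNA differed between them. All 8 measured genes lay among the brightest probe sets, with means from 11.26 to 13.24, where 460 probe sets (1.48%) were as bright as the dimmest of the 8. Of those 460 probe sets 17.6% were flat, against 4 of these 8 genes (50%). Brightness depends on the probes as well as on the transcript, so the signals of different genes are not ranked against each other.

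In the contact pathway, F12, whose product starts the cascade on negatively charged surfaces, had 12.17, 11.97, 12.29 and 12.18 in L. brevis 1 to 4, against 12.07, 12.16, 12.46 and 12.26 in control 1 to 4. The groups overlapped widely, with the lowest value in L. brevis 2 and the highest in control 3. The difference was -0.09 (SE 0.105, 95% interval -0.34 to 0.17, adjusted p = 0.854, limma). It was -0.02 without L. brevis 2 and -0.01 without control 3.

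F9 encodes factor IX, the vitamin K-dependent protease that activates factor X and is missing in haemophilia B. It had 12.65, 12.64, 12.61 and 12.63 in L. brevis 1 to 4, against 12.62, 12.43, 12.53 and 12.60 in control 1 to 4. The L. brevis livers lay close together (SD 0.0173) and the control livers were more spread (SD 0.0843). The groups overlapped only through control 1, which lay just above L. brevis 3. The difference was 0.09 (SE 0.0425, 95% interval -0.01 to 0.19), or 1.06-fold, and did not pass the test (unadjusted p = 0.08, adjusted p = 0.52, limma). Control 2 was the lowest liver, and without it the difference was 0.05. The upper end of the interval corresponds to 1.14-fold.

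F5, the cofactor gene, showed the largest difference among the 4 varying genes and also the widest spread between rats. It had 11.55, 11.42, 11.54 and 11.15 in L. brevis 1 to 4, against 10.92, 11.17, 10.85 and 11.49 in control 1 to 4. L. brevis 1 and 3 lay above every control liver, L. brevis 2 lay above all but control 4, and L. brevis 4 lay inside the control range. The mean was 11.42 ± 0.186 in L. brevis livers and 11.11 ± 0.29 in control livers (SD, n = 4 each), a difference of 0.31 (SE 0.17, 95% interval -0.10 to 0.72). That is 1.24-fold, with an interval from 0.93-fold to 1.65-fold, and it did not pass the test (unadjusted p = 0.118, adjusted p = 0.55, limma). Leaving out single rats gave 0.22 without control 3 and 0.44 without control 4.

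F10, whose activated product cuts prothrombin, was 11.85 on all 8 arrays, and F2, the gene of prothrombin itself, was 12.91 on all 8. Both are vitamin K-dependent, and for neither was a difference between the diets measurable. Of the 4 measured vitamin K-dependent genes (F2, F9, F10 and Proc), only F9 varied, so no common behaviour of that group could be described.

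On the side that limits or dissolves clots, Serpinc1, which encodes the main plasma inhibitor of thrombin, was 13.24 on all 8 arrays, and Proc was 11.99 on all 8. Plg was the only varying gene of the 3. It had 13.17, 13.15, 13.18 and 13.17 in L. brevis 1 to 4, against 13.13, 13.19, 13.23 and 13.24 in control 1 to 4. The L. brevis values all fell inside the control range, and both the lowest and the highest liver were controls. The difference was -0.03 (SE 0.0262, 95% interval -0.10 to 0.03, adjusted p = 0.736, limma), with 0.936-fold to 1.02-fold as the ends of the interval.

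**Figure D1:**
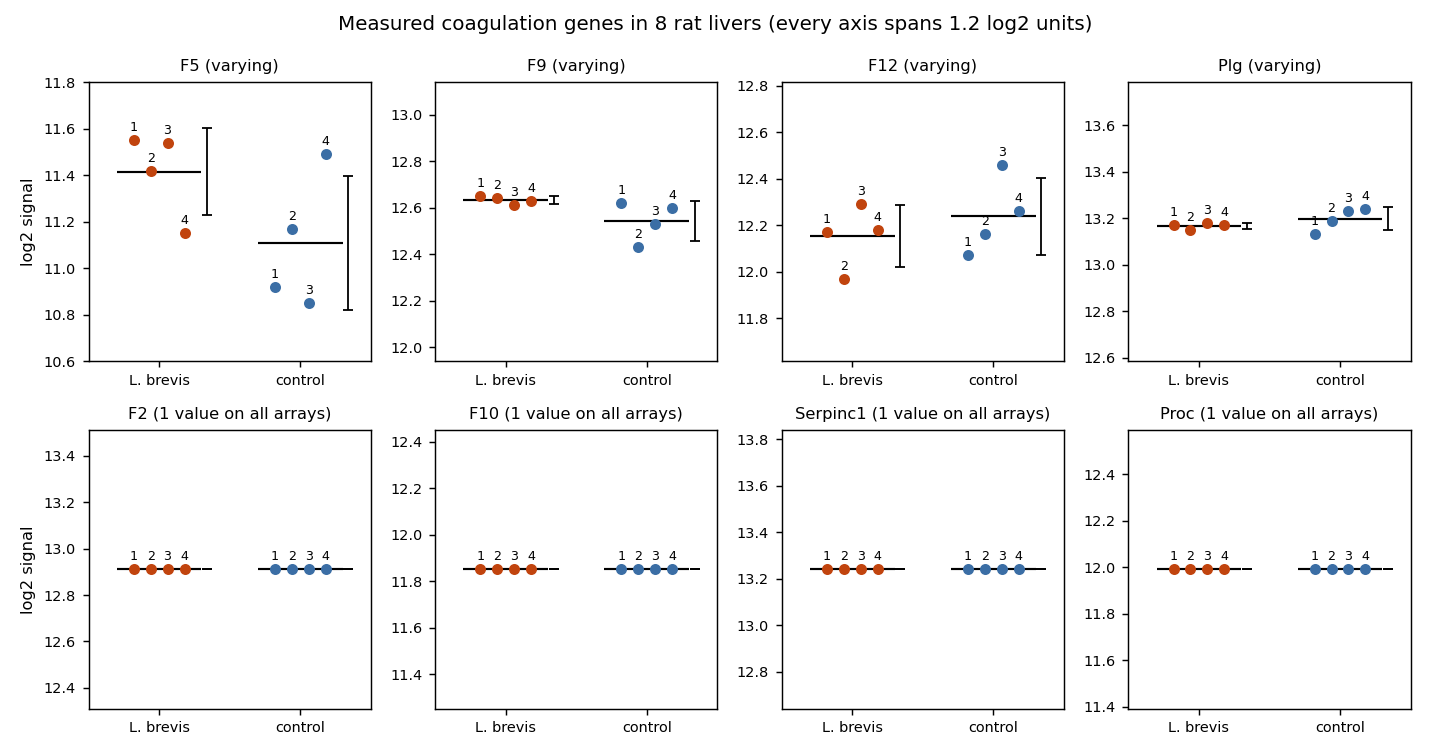
Log2 signal (vertical axis) of the 8 measured coagulation genes in each liver, numbered by replicate, with L. brevis livers in red at the left of each panel and control livers in blue at the right. Horizontal lines are group means and the bars beside them 1 SD (n = 4 each), and every axis spans 1.2 log2 units. F5 shows the widest spread, from 10.85 to 11.55, Plg stays between 13.13 and 13.24, and the 4 genes of the lower row hold 1 value each.

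Counted together, 0 of the 4 varying genes passed an adjusted p under 0.05 in limma, where 7 varying probe sets (0.111%) did. Over all probe sets tested 44 passed (0.142%), so most of those were flat ones. None of the 4 varying genes had an unadjusted p under 0.05, against 22.9% of varying probe sets. In none of them were the groups free of overlap, against 11.3% of varying probe sets (4.21% with L. brevis above and 7.09% below). When only varying probe sets were fitted, which called 0.0633% of them, the adjusted p was 0.268 for F5, 0.318 for F9, 0.634 for F12 and 0.643 for Plg (limma). These p-values do not show that the diets were alike. The intervals bound the difference below 1.14-fold for F9 and below 1.65-fold for F5 on the higher side, and set no bound for the 4 flat genes.

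The clotting factors and the genes that oppose them could be set against each other only through 3 genes on one side and 1 on the other. F5 and F9 were on the higher side and F12 on the lower, with a median difference of 0.09, while Plg, the only varying gene of the opposing group, stood at -0.03. Over all varying probe sets the median difference was -0.02, and 46.2% were higher. The mean log2 signal of F5, F9 and F12 ranged from 11.99 to 12.15 in L. brevis livers and from 11.87 to 12.11 in control livers. These ranges overlapped, and since Serpinc1 and Proc were flat, no balance between clotting factors and their inhibitors could be computed.

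The 4 varying genes also differed in how much they varied between rats. The pooled SD between rats of a group was 0.0376 for Plg and 0.0608 for F9, and smaller SDs were found in only 4.24% and 7.73% of varying probe sets. It was 0.15 for F12 and 0.243 for F5, with smaller SDs in 31.3% and 55.3%. For comparison, varying probe sets at least as bright as the dimmest of these genes had a median SD of 0.176. Control 4 lay above the 8-liver mean in 4 of 4 genes, and L. brevis 4, control 1 and control 2 each in 1 of 4. L. brevis 1 held the highest value of both F5 and F9, and the 4 lowest values fell in 4 different livers (control 3 for F5, control 2 for F9, L. brevis 2 for F12, control 1 for Plg).

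A labelling control and the markers of other cells also differed between libraries. The GAPDH 5′ minus 3′ signal, a control for the length of the labelled RNA that is lower where the 5′ part is lost, was -2.20, -1.30, -0.94 and -0.68 in L. brevis 1 to 4, against -2.89, -1.83, -2.93 and -1.98 in control 1 to 4. It followed the diets in part, with L. brevis 2 to 4 above every control liver and L. brevis 1 inside the control range. With that signal as a covariate, the differences were 0.22 for F5, 0.14 for F9, -0.07 for F12 and -0.05 for Plg, none past the test (adjusted p of at least 0.834, limma). L. brevis 2 also carried muscle and blood signal, with Acta1, skeletal muscle actin, at 12.45 against 5.08 to 5.54 in the other 7 livers, and the platelet gene Pf4 at 10.09 against 7.13 to 8.59. Its haemoglobin gene Hbb was also the highest (14.31 against 11.24 to 12.93), and the 4 measured muscle markers summed to 23.5 to 32.3 log2 units in L. brevis and 23.3 to 23.9 in control livers. Platelets hold factor V protein. F5 in that liver was 11.42, against 11.15 to 11.55 in the other L. brevis livers, and a part of platelet RNA in it was not tested. Without L. brevis 2 the differences were 0.31 for F5, 0.09 for F9, -0.02 for F12 and -0.03 for Plg. The 5 measured platelet markers summed to 34.1 to 37.1 log2 units in L. brevis and 34.7 to 35.6 in control livers, with Ppbp, Itga2b, Gp9 and Gp5 flat. The 8 hepatocyte markers summed to 104.8 to 106.7 and 104.4 to 106.1, and 3 of them (Alb, Apoh and Serpina1) were flat like F2. Ttr, a varying one, had 13.54 to 13.79 in L. brevis and 13.53 to 13.63 in control livers. In bulk tissue fewer cells of a type and less RNA per cell cannot be told apart.

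The other genes of the pathway were described from 6 lists with 36 genes, of which 30 were measured and 19 varied. None passed the adjusted threshold (smallest adjusted p = 0.239, limma). At an unadjusted p under 0.05, 3 were higher (Mcfd2, Vkorc1 and Cpb2) and 2 lower (Furin and Serpinf2), which is 26.3% of the 19, against 22.9% of all varying probe sets (9.44% higher and 13.5% lower). That share is near the background. In all 12 of the 19 were on the higher and 7 on the lower side, with a median difference of 0.08, against -0.02 over all varying probe sets.

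Of those 5, 3 were on the list of genes that process and export the members, where 6 genes were measured and 4 varied. The share over all varying probe sets was 22.9%, and a list of 4 is too short to set against it. Mcfd2, which with Lman1 carries factors V and VIII out of the endoplasmic reticulum in humans, had 10.87, 11.00, 11.10 and 11.18 in L. brevis 1 to 4, against 10.52, 10.60, 10.74 and 10.87 in control 1 to 4. Only L. brevis 1 and control 4 met. The difference was 0.36 (SE 0.102, unadjusted p = 0.0125, adjusted p = 0.347, limma), beside 0.31 for F5, and its partner Lman1 was flat at 6.99.

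Vkorc1, the vitamin K epoxide reductase that recycles the cofactor of the carboxylase and the target of warfarin, had 10.54, 11.03, 11.32 and 11.21 in L. brevis 1 to 4, against 10.28, 10.38, 10.38 and 10.71 in control 1 to 4. L. brevis 2 to 4 lay above every control liver. The difference was 0.59 (SE 0.194, adjusted p = 0.347, limma). The carboxylase gene Ggcx itself differed by 0.08 (SE 0.132).

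Furin, a protease that removes propeptides from many secreted precursors, had 8.95, 8.84, 8.78 and 8.79 in L. brevis 1 to 4, against 9.05, 9.06, 9.13 and 9.07 in control 1 to 4. Every L. brevis liver lay below every control liver, which held for 7.09% of varying probe sets. The difference was -0.24 (SE 0.0427, adjusted p = 0.239, limma), and it passed the threshold only without L. brevis 1 (-0.27, adjusted p = 0.0335, limma).

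In fibrinolysis the 2 genes at an unadjusted p under 0.05 both restrain clot breakdown, and they stood on opposite sides. Cpb2, which encodes a carboxypeptidase that removes plasminogen-binding residues from fibrin, had 11.35, 12.06, 12.07 and 12.54 in L. brevis 1 to 4, against 11.04, 11.37, 11.15 and 11.60 in control 1 to 4. Its difference was 0.72 (SE 0.271, adjusted p = 0.386, limma), and L. brevis 1 lay inside the control range. Serpinf2, the gene of the plasmin inhibitor alpha-2-antiplasmin, had 10.66, 10.49, 10.84 and 11.14 in L. brevis 1 to 4, against 10.98, 11.20, 11.85 and 11.86 in control 1 to 4. Its difference was -0.69 (SE 0.261, adjusted p = 0.386, limma), and only L. brevis 4 reached above the lowest control. Hrg, a plasminogen-binding plasma protein, differed by 0.43 (SE 0.306) and by 0.22 without control 3, Plau was at -0.01 (SE 0.131), and Plat and Plaur were flat.

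The GAPDH signal moved with several of these genes. With it as a covariate the differences were 0.19 for Mcfd2, 0.18 for Vkorc1, -0.15 for Furin, 0.09 for Cpb2 and -0.88 for Serpinf2, and those of Hrg (-0.28), Serpind1 (-0.35) and Kng2l1 (-0.04) changed sign. Its part in the differences of single genes was not tested beyond this fit.

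**Figure D2:**
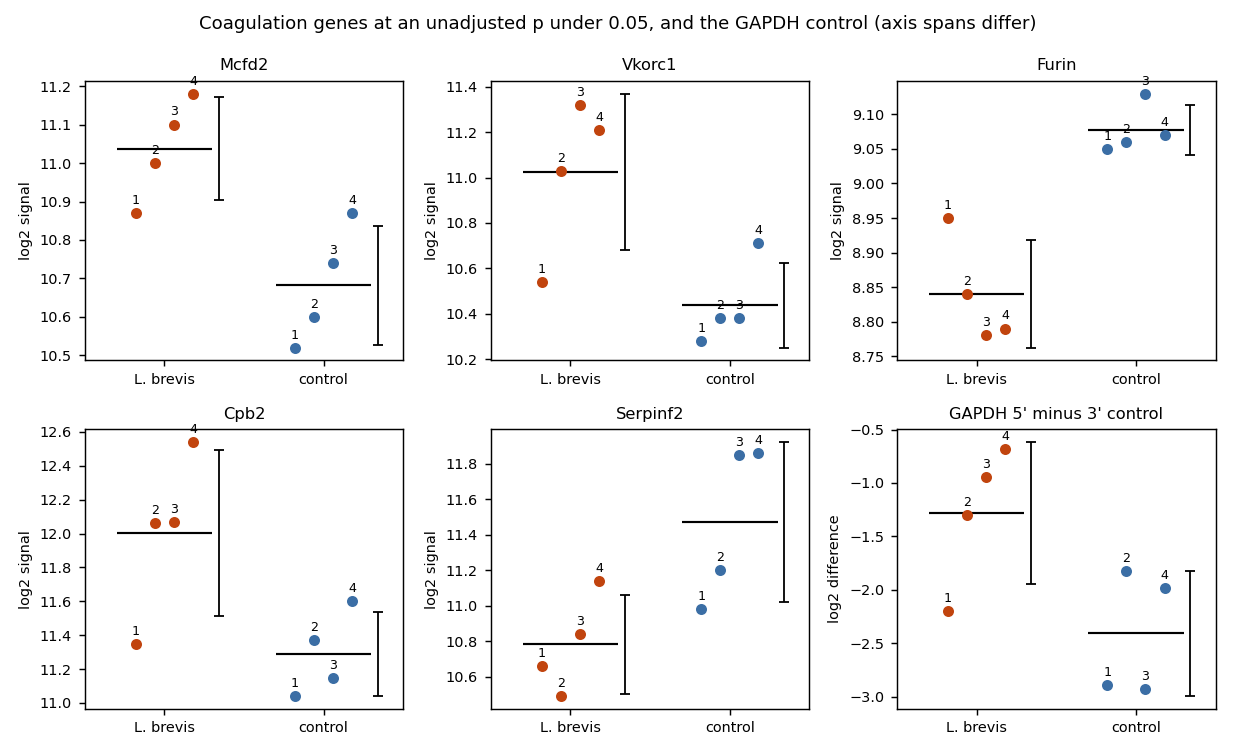
Log2 signal (vertical axis) of the 5 other coagulation genes at an unadjusted p under 0.05 and, in the last panel, the GAPDH 5′ minus 3′ control signal, in each liver numbered by replicate, with L. brevis at the left (red) and control at the right (blue) of each panel. Lines are means and bars 1 SD (n = 4 each), and axis spans differ. Furin separates the groups completely, and L. brevis 1 has the lowest GAPDH value of its group (-2.20).

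Among the end products of the cascade, the fibrinogen genes differed little and not in one direction. Fga had 13.31 to 13.44 in L. brevis and 13.16 to 13.49 in control livers (0.09, SE 0.0816). A further varying probe set for Fga gave -0.11, and the mean of both gave -0.007. Fgb had 13.69 to 13.89 in L. brevis and 13.70 to 13.88 in control livers (-0.02, SE 0.0589). Fgg had 13.79, 13.80, 13.84 and 13.87 in L. brevis 1 to 4, against 13.63, 13.87, 13.60 and 13.64 in control 1 to 4. Its difference of 0.14 (SE 0.0647, adjusted p = 0.503, limma) met the control range only through control 2, which was as high as L. brevis 4. F13a1, of the fibrin-crosslinking factor XIII, was flat at 6.04, and F13b is not analysed here.

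In the contact phase, where 2 of 5 listed genes were measured, Klkb1, plasma prekallikrein, had 11.44 to 12.02 in L. brevis and 11.49 to 11.81 in control livers (-0.02, SE 0.141). The kininogen gene Kng2l1 had 11.24, 11.52, 11.96 and 11.76 in L. brevis 1 to 4, against 10.32, 11.68, 10.10 and 11.09 in control 1 to 4, a difference of 0.82 (SE 0.39, adjusted p = 0.517, limma). Its other varying probe sets gave 0.46 and -1.07, and the mean of all gave 0.07, so the probe sets disagreed in direction, and kininogen genes of the rat are close copies of each other.

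Of 7 measured inhibitors of clotting other than antithrombin and protein C, 5 varied, 4 on the higher and 1 on the lower side, with a median of 0.01 and none at an unadjusted p under 0.05. Serpind1, heparin cofactor II, ranged from 11.65 to 12.97 in L. brevis and from 11.42 to 12.39 in control livers (0.51, SE 0.36), with 0.32 without L. brevis 4. A2m, alpha-2-macroglobulin, ranged from 7.50 to 8.99 in L. brevis and from 7.59 to 9.81 in control livers (-0.52, SE 0.589), with -0.16 without control 4, -0.90 without control 1 and -1.42 with the GAPDH covariate. Serping1, the C1 inhibitor, had the smallest spread, at 12.03 to 12.04 in L. brevis and 12.01 to 12.04 in control livers. Its 8 values spanned 0.026 log2, little above the limit of 0.01 for a flat probe set, so little can be said of how its RNA varied. Serpina5 and Tfpi were flat.

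Of the 5 genes listed under initiation and the vessel wall, only Vwf varied. It had 6.66, 6.86, 6.61 and 6.68 in L. brevis 1 to 4, against 7.34, 8.19, 6.54 and 7.27 in control 1 to 4 (-0.63, SE 0.338, adjusted p = 0.55, limma). It was -0.35 without control 2, and F3, F8, Thbd and Procr were flat. The 8 measured endothelial markers, Vwf among them, summed to 68.1 to 69.0 log2 units in L. brevis and 69.9 to 74.0 in control livers. Of these 7 of 7 varying ones were on the lower side, where 46.2% of all varying probe sets were on the higher side. At an unadjusted p under 0.05, 3 of the 7 were lower, against 13.5% of all varying probe sets. Kdr, the VEGF receptor gene, had 10.00 to 10.20 in L. brevis and 10.35 to 10.77 in control livers (-0.46, SE 0.104, adjusted p = 0.293, limma), but a further varying probe set of Kdr gave 0.02. Their part in the value of Vwf was not tested, and Tek was flat.

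**Figure D3:**
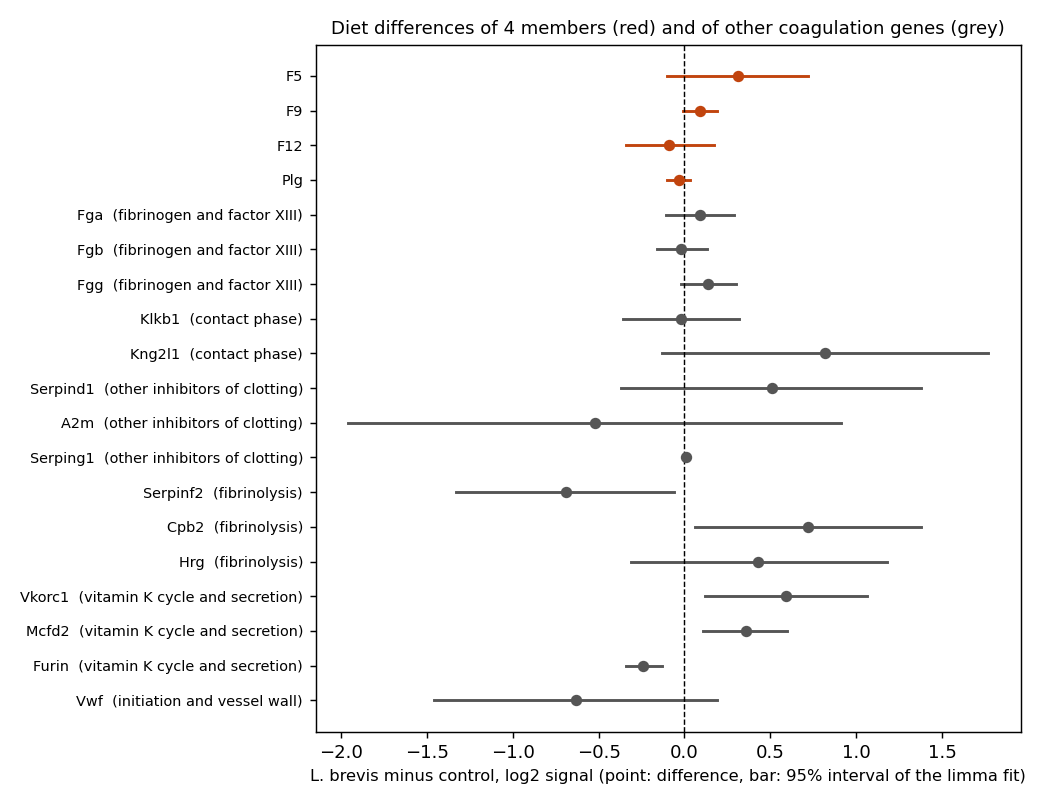
L. brevis minus control difference in log2 signal (horizontal axis) for the 4 varying members F5, F9, F12 and Plg (red) and for other coagulation genes (grey, with their list). Points are differences and bars the 95% interval of the limma fit (n = 4 each). The grey genes are those picked by the rule given under data processing, so Ggcx and Plau are not shown. The intervals of all 4 members include 0, and those of Serpinf2, Cpb2, Vkorc1, Mcfd2 and Furin do not, without adjustment for the number of probe sets tested.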

How the data were processed

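The values are log2 signals per probe set, normalized and summarised by the authors before they were deposited. Their normalization method: not given in the sources used here. Per the labels' protocols, total RNA (Trizol, then a column kit) was amplified into biotinylated RNA by a kit that primes at the 3′ end. The table held 31099 rows, and without 57 Affymetrix control rows 31042 were tested. GEO's annotation gives 1 symbol to 20826 of these, more than 1 to 436 and none to 9780. The brightest single-gene probe set stood for its gene.

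The diets were compared in limma 3.58.1 (R 4.3.3): lmFit on all 31042 probe sets, eBayes with an intensity trend, two-sided, Benjamini-Hochberg adjustment over all of them, threshold 0.05. The fit was tested on simulated data with shifts larger than any difference of the members, so that test does not cover differences of their size. The named genes were all 10 members, all varying fibrinogen, factor XIII and contact phase genes, and the 3 varying genes with the smallest unadjusted p in each further list, with the 2 brightest varying genes of each cell type marker list. Marker lists were printed only where they touch a result. Of the genes this rule picked from those lists, Apoc3 (0.05), Lyve1 (-0.41, with -0.15 for a further varying probe set), Alas2 (0.01) and Ckm (0.39) were not described above. Ggcx, Plau, Hnf4a and flat genes were named beyond that rule, after their values were seen. Members and lists were chosen with earlier results of these data known. Alternatives were quantile normalization, median centring, probe set filters, averaged probe sets, no intensity trend, a replicate block, leaving out single rats and, added after seeing the data, a GAPDH covariate. Promoters are RefSeq sequences of build GRCr8, matched by symbol for 10 of 10 genes, and some patterns searched are not reported here. Array medians lay between 6.61 and 6.63, no scan batch was known, and 4 arrays a group limit the precision.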

Additional observations from a re-analysis of the deposited data

Results flagged for a closer look

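In 25 varying genes, the members and those picked by rule from the pathway lists, 50 groups of 4 livers were examined. The search was for 1 liver whose gap to its nearest neighbour passed Dixon's 95% limit. It found 2, where chance gives about 1 in 20 groups. Cell type marker genes and the genes named beyond the rule were not examined in this way. Crp, C-reactive protein, was 10.16 in L. brevis 1, against 11.23 to 11.37 in the other L. brevis livers. Fgg, the fibrinogen gamma chain, was 13.87 in control 2, against 13.60 to 13.64 in the other control livers. No value of F5, F9, F12 or Plg stood apart in this way.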

How the results depend on the processing

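Under all alternatives F5 and F9 kept a positive and F12 a negative difference, and none of 60 values of F5, F9, F12 and Plg passed the threshold (adjusted p from 0.0721, F9 under median centring, to 1, limma). Plg turned to 0.005 under median centring, was -0.11 under quantile normalization and ran from -0.06 to -0.02 with single rats left out. The median of the clotting factors ran from 0.05 to 0.11 with single rats left out. It was 0.01 under quantile normalization, 0.13 under median centring and 0.14 with the GAPDH covariate. F9 alone was also 0.01 under quantile normalization. Both scalings gave flat genes differences of their own making. Quantile normalization gave -0.08 for F2, F10 and Proc and -0.03 for Serpinc1, and median centring gave 0.04 for each of them. Median centring subtracts 1 value per array, so it moved every difference by the same amount, and the median over all probe sets became 0.037. Averaging probe sets could not change F5, F9, F12 or Plg, which have 1 each. The count of varying probe sets called, 7, was 0 under quantile normalization, 4 under median centring and over varying probe sets alone, 1 with the GAPDH covariate, and 3 to 49 with single rats left out (3 without L. brevis 4, 49 without L. brevis 1). With the replicate block it was 22. Deviations of same-numbered livers correlated at 0.359, 0.203, 0.078 and 0.381, the numbers were not taken as pairs, and not every liver correlated best with its own number. Sign changes of other named genes came with varying probe sets averaged (Fga -0.007), under median centring (Fgb 0.02, Klkb1 0.02, Hp 0.009), quantile normalization (Serping1 -0.08) and the GAPDH covariate (Fgb 0.03, Kng2l1 -0.04, Serping1 -0.002, Serpind1 -0.35, Hrg -0.28). With single rats left out Fgb ran from -0.06 to 0.02 and Klkb1 from -0.13 to 0.06. Apart from the common shift of median centring, the causes were not tested.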

Other observations

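Acute phase proteins, which hepatocytes secrete together with fibrinogen, were not uniform. Of 9 measured genes 7 varied, 4 on the higher and 3 on the lower side, with a median of 0.00 and none past the adjusted threshold in limma. Orm1, alpha-1-acid glycoprotein, had 11.82, 12.00, 11.83 and 12.68 in L. brevis 1 to 4, against 9.34, 10.30, 11.12 and 11.27 in control 1 to 4 (1.57, SE 0.483, adjusted p = 0.347, limma). Crp had 10.16, 11.28, 11.23 and 11.37 in L. brevis 1 to 4, against 9.85, 9.64, 9.45 and 10.04 in control 1 to 4 (1.26, SE 0.306, adjusted p = 0.32, limma). In both genes every L. brevis liver lay above every control liver, which held for 4.21% of varying probe sets. With the GAPDH covariate the differences were 1.10 for Orm1 and 0.67 for Crp, and without L. brevis 1 Crp passed the threshold (1.54, adjusted p = 0.0281, limma). Haptoglobin (Hp) differed by -0.03 (SE 0.0197), and Itih4 and Hpx were flat. A2m, described above among the inhibitors, is also on this list, on the lower side (-0.52, SE 0.589).

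Among transcription factors of hepatocytes, 7 of 8 measured genes varied, 4 higher and 3 lower, with a median of 0.25. Nr1h4, the bile acid receptor FXR, was the only one at an unadjusted p under 0.05, with 8.64 to 9.32 in L. brevis and 9.28 to 9.84 in control livers (-0.54, SE 0.186, adjusted p = 0.355, limma), and -0.32 with the GAPDH covariate. Prox1 differed by -0.22 (SE 0.141), by -0.11 without L. brevis 4 and by -0.01 with the covariate. Onecut1, the gene of HNF6, ranged from 7.07 to 11.42 in L. brevis and from 5.88 to 9.43 in control livers (1.47, SE 1.19). It was 0.72 without control 2, 0.86 without L. brevis 1, 2.31 without L. brevis 4, 3.86 with the covariate and 1.15 as the mean of its varying probe sets. Hnf4a, whose binding letters stand before F9, had 11.57 to 11.65 in L. brevis and 11.57 to 11.85 in control livers (-0.05, SE 0.0652).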
